A study of Mus musculus with 39 samples.

Results

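Collagen chains are the subunits of the collagen trimers of the extracellular matrix. The chains described here were every gene of the series' fold-change table whose symbol has the form Col, a number, a and a number, 40 of the 29411 symbols in that table. Of these 40 chains, 37 had a probe that was detected (well above background) on 6 or more of 39 arrays, and these were tested among 24723 genes: 11 fibrillar chains, 6 basement membrane chains and 20 chains of other classes. Col10a1, Col20a1 and Col28a1 did not pass, each being well above background on 4 arrays. The 40 members follow from their names, and which of them were tested, and from which probe, follows from brightness over all arrays together, without regard to diet.

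The arrays held RNA of the fraction that the labels call brown infiltrating macrophages (SVCs), from brown fat of C57BL/6J mice put on a diet after weaning at 3 to 4 weeks of age. LFC mice ate a normal diet with 10% of calories from fat, and HFC mice a high-fat high-sucrose diet (HFHSD) with 60% of calories from fat. HF5, HF20 and HF75 mice ate HFHSD and received 5, 20 or 75 µg of KAL-1, an aqueous ethano-botanical formulation. LFC had 10 arrays and HFC 11, from Day 1, 6, 10 and 14 and Week 0, 3, 6, 9, 12, 15 and 18, with no LFC array at Week 6. The 3 dose groups had 6 arrays each, from Week 3 to Week 18. Each diet had 1 array per time label, so spread here is the spread over time labels within a diet. The labels give 30 animals per group and do not say how many animals went into an array.

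Collagens are built from 3 chains wound into a triple helix. The fibrillar chains, such as those of collagens I, III and V, form the fibres of connective tissue and are made mainly by fibroblasts. Collagen IV forms the sheet of the basement membrane around vessels and around each adipocyte, and collagen VI forms beaded filaments that are abundant in fat. Adipose tissue remodels this scaffold when its cells enlarge.

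Levels are log2 of the processed signal minus the 75th percentile of the array, so that 0 is the signal of the 75th percentile spot and 1 unit is a doubling. Each chain was read from the brightest of its probes, and levels of different chains are not set against each other because probes differ in response. In whole RNA of a mixed fraction, fewer cells of a type and less RNA per cell cannot be told apart.

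The labelled cell type was checked first. The macrophage markers were measured on these arrays, with Emr1 (F4/80) between -1.42 and 4.15 (median 1.68) and Csf1r at a median of 0.56. Brown adipocyte markers were present too: Ucp1, the uncoupling protein of brown fat, had a median of 6.23 and was detected on all 39 arrays. The fibroblast marker Pdgfra was well above background on 37 of 39 arrays, and the endothelial marker Pecam1 had a median of 1.11. The arrays thus measured genes of several cell types together. Ucp1 was lowest at HFC Week 12 (-3.18) and LFC Day 10 (-3.16). On these arrays the mesothelial marker Msln stood at 4.08 and 3.46, against a median of -3.91 over all arrays. The mesothelial marker Krt19 stood at 2.40 and 3.48 there, against a median of -2.85. On 3 arrays over 10% of spots were left out as outliers, with 71.4% at HF20 Week 15, 18.6% at HF5 Week 12 and 11.1% at HFC Week 12. Each of the 18 scan dates held 1 time label, so time and scan date cannot be told apart. Within a label, diets were often scanned on different dates: LFC shared the scan date of HFC at 6 of 10 labels, HF5 at 6 of 6, HF20 at 3 of 6 and HF75 at 2 of 6. Titles of 9 arrays carry the token BA or BAT, and the other 30 carry B, B2, B-A or B_A, with no meaning given. The Day 14 columns of the deposited fold-change table and the scanner files disagree on which array is LFC and which HFC, and the scanner files were followed.

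The stretches before the starts of Col1a2 and Col3a1 are shown because both genes encode chains of the major fibrillar collagens and moved closely together over the arrays. Each line gives the 250 bases before the RefSeq start (GRCm38.p6), with capitals for 3 motifs wherever they were found on either strand: the CCAAT box, the core TATAAA of the TATA box, and the letters GGGCGG of the GC box.
Col1a2, chr6:4505368-4505617 (+ strand): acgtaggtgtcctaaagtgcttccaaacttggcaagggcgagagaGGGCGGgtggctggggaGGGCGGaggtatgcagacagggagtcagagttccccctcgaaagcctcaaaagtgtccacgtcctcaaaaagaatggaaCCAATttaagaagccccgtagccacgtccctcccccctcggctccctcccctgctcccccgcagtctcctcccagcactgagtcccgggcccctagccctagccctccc
Col3a1, chr1:45311288-45311537 (+ strand): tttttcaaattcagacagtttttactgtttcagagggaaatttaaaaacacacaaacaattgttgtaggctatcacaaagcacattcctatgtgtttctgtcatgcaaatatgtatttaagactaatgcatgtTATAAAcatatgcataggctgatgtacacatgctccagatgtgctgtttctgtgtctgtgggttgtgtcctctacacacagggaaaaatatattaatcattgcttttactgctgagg
The Col1a2 stretch held 2 copies of GGGCGG and 1 of CCAAT, and the Col3a1 stretch held 1 TATAAA and neither of the other motifs. In windows from 250 bases before to 50 bases after the start, 29 of the 37 chains matched the RefSeq table, with 32 windows in all. GGGCGG was in 20 of these 32 windows (62.5%) and in 35.7% of 32851 promoters. CCAAT was in 12 of 32 (37.5%, against 37.4%) and TATAAA in 4 of 32 (12.5%, against 13.6%). The starts of Col4a1 and Col4a2 lie 21 bases apart on opposite strands of chromosome 8, so these windows share 78 bases, and those of Col4a5 and Col4a6 lie 1343 bases apart on the X chromosome.

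Collagen I is a trimer of Col1a1 and Col1a2 chains and is the main protein of the fibres. Col1a1 ranged from -0.18 to 6.40 (median 5.58) on 9 LFC arrays and from 2.68 to 7.71 (median 5.81) on 11 HFC arrays. The lowest LFC value was that of Week 18, the only array where Col1a1 was not well above background. In the dose groups Col1a1 ranged from 2.82 to 7.04 (median 4.10) in HF5, from 2.16 to 6.94 (median 4.04) in HF20 and from 2.46 to 7.15 (median 4.73) in HF75. All 5 groups overlapped, and the highest array of each dose group was that of Week 6. Col1a2 ranged from 3.65 to 7.86 (median 6.20) in LFC and from 3.94 to 8.36 (median 6.09) in HFC. Its dose medians were 5.28 in HF5, 5.31 in HF20 and 5.69 in HF75, with a lowest value of 3.33 at HF20 Week 15 and a highest of 8.23 at HF75 Week 6.

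Col3a1, the single chain of collagen III, ranged from 3.96 to 7.27 (median 5.97) in LFC and from 4.34 to 7.71 (median 6.11) in HFC. Its medians were 5.03, 5.00 and 5.67 in HF5, HF20 and HF75, and again the ranges overlapped. Col6a3, the long chain of collagen VI, ranged from 1.71 to 4.12 in LFC, 0.85 to 4.34 in HFC, 0.84 to 3.52 in HF5, 0.55 to 3.90 in HF20 and 1.33 to 3.70 in HF75. Its shorter partners also overlapped between all diets, with Col6a1 medians of 0.95, 1.21, 0.67, 1.1 and 0.77 and Col6a2 medians of -0.04, -0.35, -0.28, 0.29 and 0.42 in LFC, HFC, HF5, HF20 and HF75.

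Col4a1 and Col4a2 make up the collagen IV of most basement membranes. Col4a1 ranged from 2.37 to 5.30 (median 4.04) in LFC and from 2.58 to 5.80 (median 3.37) in HFC. These groups include the early time labels, so the doses are best read against HFC at Week 3 to 18, where Col4a1 lay between 2.58 and 3.37 (mean 3.03 ± 0.29, SD, n = 6). At the same weeks it ranged from -0.07 to 3.46 (median 2.42) in HF5, from -0.54 to 3.57 (median 2.21) in HF20 and from 1.52 to 3.13 (median 2.52) in HF75. Col4a2 lay between 1.48 and 3.92 in HFC at Week 3 to 18, with dose medians of 2.11, 2.0 and 1.92. The dose medians of both chains lay below the HFC mean of the same weeks, and the ranges overlapped.

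**Figure D1:**
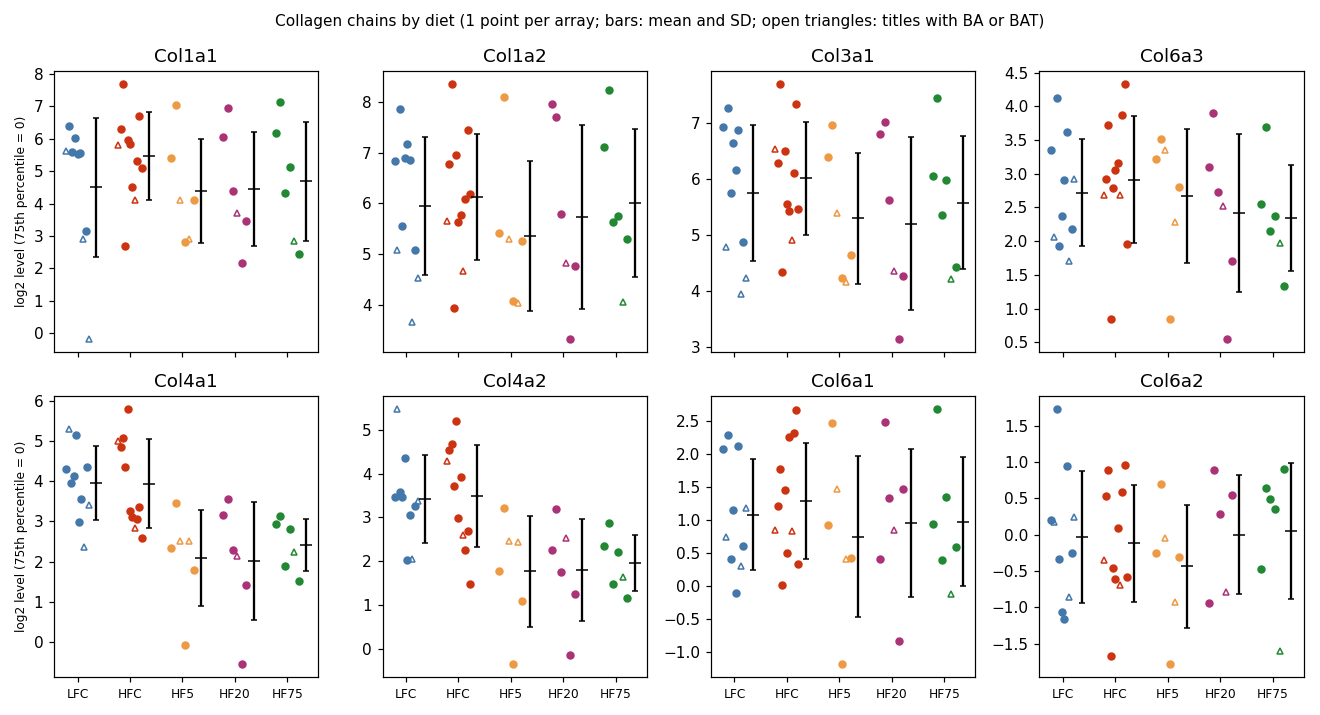
Level of 8 collagen chains by diet (log2 signal minus the array's 75th percentile), 1 point per array, with bars for mean ± SD and open triangles for arrays titled BA or BAT. The diets overlap for each of the 8 chains, as in Col1a2 with LFC from 3.65 to 7.86 and HFC from 3.94 to 8.36.

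The first comparison asked whether HFHSD moved the chains away from the normal diet. In limma's additive fit of diet and time label, no chain differed between HFC and LFC at a Benjamini-Hochberg adjusted p of 0.05 over all probes, and neither did any other gene (0% of 24721 genes). At an unadjusted p under 0.05, 1 of 37 chains passed, against 2.82% of genes. The estimates were above 0 for 27 chains and below 0 for 10, with a median of 0.15 against 0.04 over all genes (0.11 against -0.05 after quantile scaling, 0.06 against -0.24 after normexp background correction). This sign did not hold throughout, since the chain median was -0.08 without the 9 arrays titled BA or BAT, -0.01 without the 3 arrays with many spots left out and 0.01 with array weights, which did not converge. A test pooled over time labels also called no chain after adjustment and 1 before it. That test is not the study's own test of replicates within a time point, which could not be run.

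Col2a1, the chain of cartilage collagen II, had the smallest p, with an estimate of 1.75 (SE 0.50, unadjusted p = 0.00169, limma adjusted p = 0.9995). It ranged from -4.59 to 0.98 (median -1.64) on 10 LFC arrays, 7 of them well above background, and from -3.56 to 2.50 (median 0.82) on 11 HFC arrays, 10 of them well above background. HFC lay above LFC at 8 of 10 shared time labels (median difference 2.01), and at 4 of the 6 with 1 scan date (median 1.15). Its other probe gave 0.12 (SE 0.46), and with array weights, which did not converge, the estimate was 0.67. Next came Col4a4, a chain of the minor collagen IV network, at 0.65 (SE 0.37, unadjusted p = 0.0916), and Col4a5 of the same network at 1.28 (SE 0.90, unadjusted p = 0.168), neither of which passed.

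The HFC minus LFC estimate was 0.77 (SE 0.61) for Col1a1, 0.04 (SE 0.48) for Col1a2, 0.17 (SE 0.42) for Col3a1, -0.03 (SE 0.38) for Col4a1 and 0.02 (SE 0.36) for Col4a2. The median HFC minus LFC difference for Col1a1 was 0.69 over all labels and 1.87 over the 6 with 1 scan date. It was 0.29 and 1.08 for Col1a2, and 0.15 and 0.83 for Col3a1. Among those 6 labels, LFC is titled BA or BAT at Week 12 and Week 18, and HFC at none. Among the others, HFC is so titled at Day 1 and Week 9, and LFC at Day 6. Scan date and title thus cannot be told apart here. By class, 8 of 11 fibrillar chains (median 0.15) and 5 of 6 basement membrane chains (median 0.31) were estimated higher in HFC. The 9 fibroblast markers had estimates above 0 as well (median 0.52), and 6 of 7 brown adipocyte markers had estimates below 0 (median -0.56). Median Ucp1 was 5.67 in LFC and 5.93 in HFC, with the low arrays LFC Day 10 (-3.16) and HFC Week 12 (-3.18) included. None of these markers passed, and their part in the collagen values was not tested. In the lists of the collagen pathway, the smallest unadjusted p values included Pcolce2, an enhancer of procollagen processing (1.13), and the matrix metalloproteinase Mmp2 (0.88), neither past the adjusted threshold.

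The 3 KAL-1 doses were each compared with HFC, which asks whether the formulation moved the chains under HFHSD. No chain passed in limma's fit for any dose, and no gene did (0% of 24721 genes for HF5, 0% for HF20 and 0% for HF75). Unadjusted, 4 chains passed for HF5 (1.27% of genes), 3 for HF20 (2.83% of genes) and 4 for HF75 (3.78% of genes). Genes passing with a higher level were 1.46% for HF20 and 3.07% for HF75, against no chain in HF20 and 3 of the 4 in HF75. The test pooled over time labels called 0 after adjustment for each dose, and 1, 0 and 3 before it. The comparisons share their HFC arrays, so like signs in them are not independent.

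Col4a1 and Col4a2 were estimated lower at the low and middle doses. Col4a1 was -1.15 (SE 0.47, unadjusted p = 0.0220) in HF5 and -1.23 (SE 0.47, unadjusted p = 0.0151) in HF20, with limma adjusted p of 0.99996 and 0.998. Col4a2 was -1.05 (SE 0.44, unadjusted p = 0.0251) in HF5 and -1.01 (SE 0.44, unadjusted p = 0.0295) in HF20. Week by week, Col4a2 was below HFC at 6 of 6 weeks in HF5, 5 of 6 in HF20 and 6 of 6 in HF75, and Col4a1 at 5 of 6 weeks for each dose. At the weeks scanned on the date of HFC, the median differences were -0.92 for Col4a1 and -0.72 for Col4a2 in HF20 (3 weeks), and -0.69 and -0.55 in HF75 (2 weeks). The lowest values of both chains were HF20 Week 15 and HF5 Week 12, the arrays with the most spots left out. Without the 3 arrays that lost over 10% of spots, Col4a1 was -0.75 in HF5 and -0.63 in HF20, and Col4a2 was -0.70 and -0.68. The other probe of Col4a1 gave -0.46 (SE 0.34) in HF5, and that of Col4a2 -1.06 (SE 0.52).

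Endothelial genes had estimates of the same sign. All 7 endothelial markers were estimated lower at each dose, with medians of -0.73 in HF5, -0.93 in HF20 and -0.35 in HF75. So were all 9 measured basement membrane partners, such as laminins and nidogens, with medians of -0.70, -0.62 and -0.49. The endothelial receptor Tie1 was -1.40 in HF5 and Kdr, the main VEGF receptor, -1.37 in HF20, while the laminin chain Lamc1 was -1.03 in HF5 and -1.08 in HF20. None of these passed adjustment. The summed endothelial level ranged from 26.0 to 91.0 (median 53.9, in units of the 75th percentile signal) on HFC arrays of Week 3 to 18, against medians of 33.0, 24.2 and 45.4 in the 3 doses. Its part in the collagen IV values was not tested.

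Col17a1, a transmembrane collagen of epithelial anchoring, had the smallest p in HF5, at -2.02 (SE 0.58, unadjusted p = 0.00161, limma adjusted p = 0.99996). It ranged from -3.16 to -1.35 in HFC at Week 3 to 18, from -6.50 to -3.15 (median -4.35) in HF5, from -4.49 to -2.76 (median -2.99) on 5 HF20 arrays and from -4.45 to -2.35 (median -4.02) in HF75. It lay below the HFC array of the same week at 6 of 6 weeks in HF5, 5 of 5 in HF20 and 6 of 6 in HF75. These are dim values, since 2 of 6 HF5 arrays and 3 of 6 arrays of each other dose were well above background. With normexp background correction the HF5 estimate was -0.04, and the HF75 estimate of -1.25 (SE 0.58) turned to 0.30. Col5a3, a chain of collagen V, had -0.84 (SE 0.37) in HF5 and -0.81 (SE 0.37) in HF20.

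At the highest dose the smallest p belonged to Col4a6, a basement membrane chain, which was estimated higher by 1.03 (SE 0.44, unadjusted p = 0.0265, limma adjusted p = 0.9998). It lay between -2.41 and -1.41 in HFC at Week 3 to 18 and between -2.17 and 0.57 in HF75, above the HFC array of the week at 6 of 6 weeks, of which 2 shared its scan date (median difference 1.03 there, 0.90 over all 6). The fibril-associated chain Col19a1 was estimated at 2.66 (SE 1.24, unadjusted p = 0.0413) and Col11a2, of collagen XI, at 0.81 (SE 0.38, unadjusted p = 0.0453). Col9a1 was not well above background on any HF75 array.

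Signs over all chains differed by dose. In HF5, 27 of 37 chains were estimated lower (median -0.36 against -0.03 over all genes), among them 9 of 11 fibrillar chains (median -0.46). The chain median was -0.13 without the titled arrays and -0.20 without the 3 arrays with many spots left out. The 3 collagen VI chains had estimates below 0 (median -0.40), but Col6a1, Col6a2 and Col6a3 lay above HFC at 4 of 6 weeks, with median differences of 0.15, 0.31 and 0.26. They lay below it at Week 12, where 18.6% of HF5 spots were left out, and at Week 15, where the HF5 array is titled BA or BAT. The 9 fibroblast markers went the same way in 8 cases (median -0.73), and all 16 measured genes of collagen modification and folding had estimates below 0 (median -0.23). In HF20, 20 of 37 chains were estimated lower (median -0.07), but the median was 0.04 after quantile scaling and 0.10 after normexp, where the median of all genes moved from -0.01 to -0.15 and 0.18. The chain median was 0.22 without the titled arrays and 0.23 without the 3 arrays with many spots left out. In HF75, 22 of 37 were estimated higher (median 0.17 against 0.09 over all genes), and after quantile scaling the median was -0.01, with array weights -0.07. Brown adipocyte markers were estimated higher in 7 of 7 cases in HF5 (median 1.21), 6 of 7 in HF20 and 7 of 7 in HF75 (median 1.37), and none passed. The HFC arrays include Week 12, with Ucp1 at -3.18. Median Ucp1 was 6.30 in HFC at Week 3 to 18, against 6.38 in HF5, 6.77 in HF20 and 6.57 in HF75. Whether the marker estimates depend on that HFC array was not tested.

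**Figure D2:**
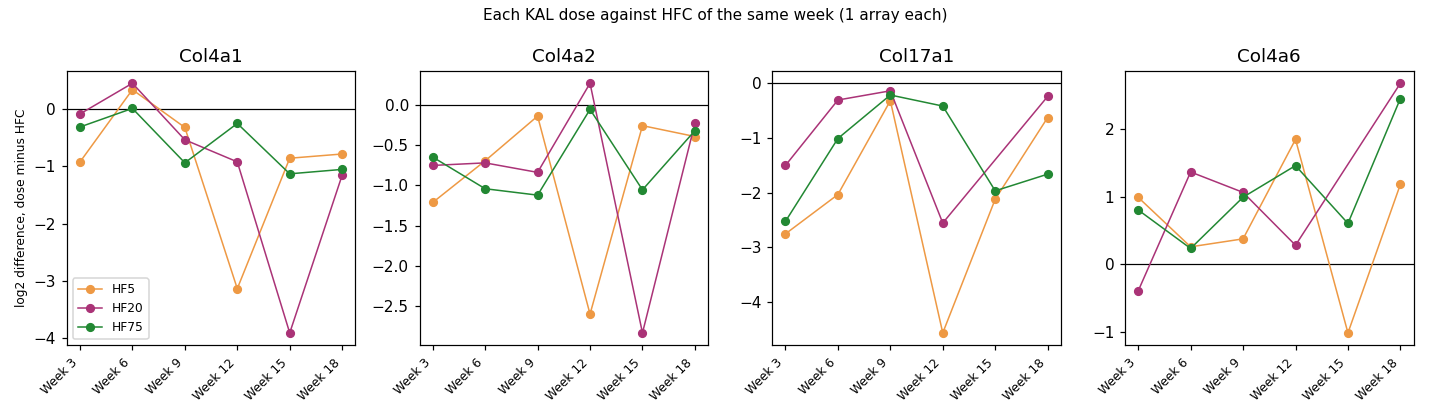
Level in each KAL-1 dose minus the HFC array of the same week (log2 difference), by week, for Col4a1, Col4a2, Col17a1 and Col4a6, with 1 point per dose and week. Col17a1 lies below 0 at 6 of 6 weeks in HF5 (median -2.08) and Col4a6 above 0 at 6 of 6 weeks in HF75 (median 0.90).

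The trend over dose rank asked whether a chain moved in steps from HFC through HF5 and HF20 to HF75. Over the 24 arrays of Week 3 to 18, limma called no chain and 0% of 24723 genes at an adjusted p of 0.05. Unadjusted, 4 of 37 chains passed, all with slopes above 0, against 7.84% of genes (7.06% with slopes above 0). Col19a1 had an estimate of 1.17 per step (SE 0.35, unadjusted p = 0.00326, adjusted p = 0.524), from a range of -7.04 to -1.64 in HFC to one of -4.87 to 1.98 in HF75, which overlap. Col4a6 had 0.35 per step (SE 0.14, adjusted p = 0.585) and Col4a4 0.33 (SE 0.14, adjusted p = 0.645). Among the 37 slopes, 20 were above 0 (median 0.05 against 0.02 over all genes). Col19a1 was well above background on 2 of these 6 HFC arrays and on 5 of 6 HF75 arrays, and the lowest signal that counts as well above background had a median of -5.14 on the HFC arrays and -2.93 on the HF75 arrays, so a dim probe could read lower in HFC. Col4a6 and Col4a4 were well above background on every array of both groups. Over all 5 diets, limma's F test called 0 chains (0% of genes), with 5 of 37 passing unadjusted against 3.89% of genes. The smallest p was again that of Col2a1 (F = 3.99, p = 0.0117), followed by Col17a1 (F = 3.52) and Col4a4 (F = 3.17), all with an adjusted p of 0.99999.

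The arrays also follow the diets over time. Across the 11 time labels, limma's F test called 0 of 37 chains and 1.09% of genes at an adjusted p of 0.05. Unadjusted, 14 of 37 chains passed against 20.4% of genes, including 6 of 11 fibrillar chains, 3 of 6 basement membrane chains and both multiplexins. The smallest p values were those of Col18a1, the basement membrane multiplexin that carries endostatin (F = 3.79, adjusted p = 0.0796), Col4a2 (F = 3.76, adjusted p = 0.0807) and Col2a1 (F = 3.75, adjusted p = 0.0841). The count was 4 without Week 9, 2 without HF20 Week 15, 1 without HFC Week 6, HF5 Week 12 or HFC Week 15, and 0 without any other single array or time label. Of the pathway genes outside the chains, 1 was called, the gelatinase Mmp2 (F = 6.19, adjusted p = 0.0336).

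Col4a1 and Col4a2 stood higher at the early time labels. On the 10 LFC and HFC arrays from Day 1 to Week 0, Col4a1 ranged from 3.96 to 5.80 (4.79 ± 0.59, SD), and on the 11 from Week 3 to 18 from 2.37 to 4.35 (3.17 ± 0.53, SD). Of the later arrays LFC Week 15 alone reached into the early range. Col4a2 ranged from 3.47 to 5.48 (4.28 ± 0.71, SD, n = 10) early and from 1.48 to 3.92 (2.70 ± 0.71, SD, n = 11) later, with some overlap. Col1a2 was at 6.39 ± 1.33 (SD) early and 5.73 ± 1.18 later, and Col3a1 at 6.28 ± 1.05 and 5.54 ± 1.04, differences smaller than 1 SD.

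In the trend over days on these 21 arrays, no chain passed in limma and 0% of 24723 genes did, with 5 of 37 chains passing unadjusted, all with slopes below 0, against 12.2% of genes (7.81% below 0 and 4.36% above). Col4a1 had a slope of -0.31 per doubling of days (SE 0.08, unadjusted p = 0.000735, adjusted p = 0.174), and Col4a2 had a slope of -0.31 (SE 0.09, unadjusted p = 0.00226, adjusted p = 0.197). Their other probes gave -0.29 and -0.38. The slope was -0.48 (SE 0.19, adjusted p = 0.338) for Col9a1, of the fibril-associated collagen IX, -0.42 for Col11a1 and -0.40 for Col1a1. Slopes were below 0 for 30 of 37 chains (median -0.12 against -0.05 over all genes), including 7 of 8 fibril-associated chains.

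The endothelial markers moved beside collagen IV over time. All 7 had slopes below 0 that passed unadjusted, such as Tie1 (-0.29, adjusted p = 0.252) and the junction cadherin Cdh5 (-0.29). The summed endothelial level ranged from 78.9 to 197.9 (median 159.5) on the early LFC and HFC arrays and from 23.8 to 216.4 (median 64.7) on the later ones. Of the basement membrane partners 8 of 9 had slopes below 0, with Lama5 (-0.30, adjusted p = 0.203) and Nid2 (-0.25, adjusted p = 0.192) among them, and Sparc, a collagen-binding matrix protein, had -0.34 (adjusted p = 0.198). The part of vessel cells in the collagen IV values was not tested.

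**Figure D3:**
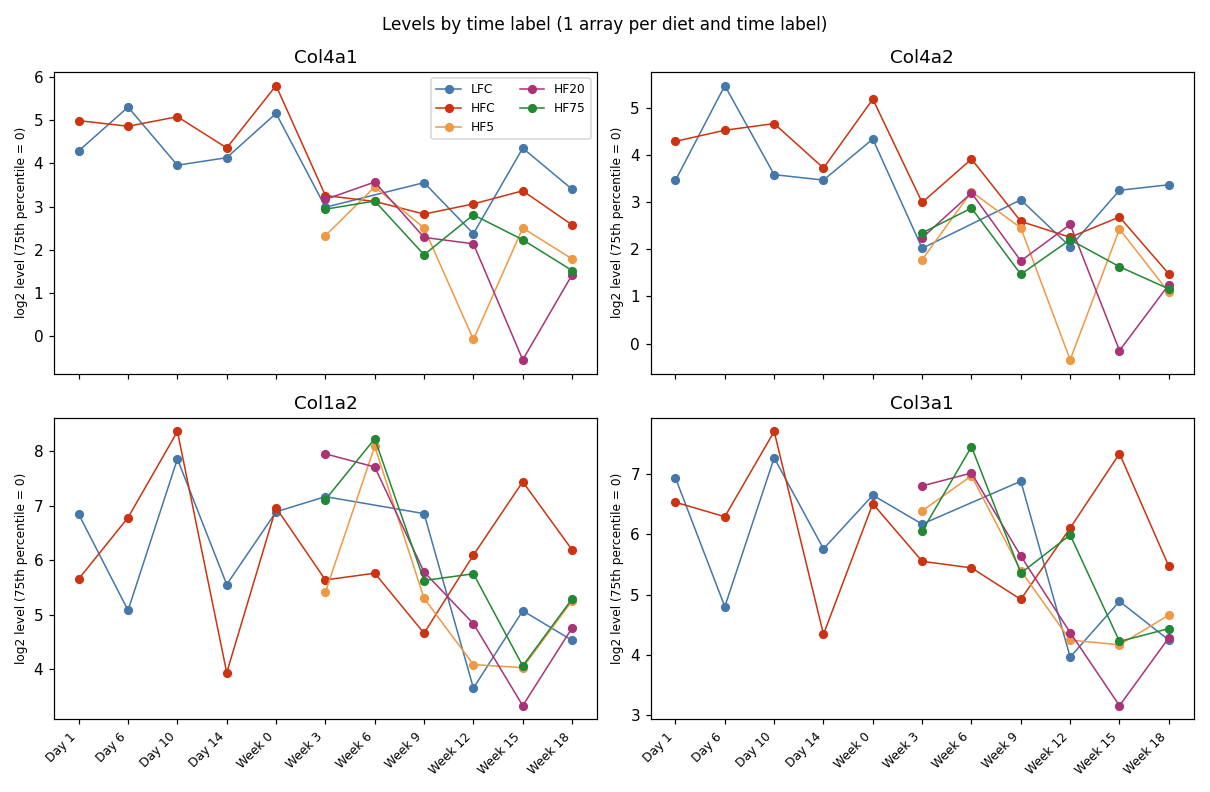
Level of Col4a1, Col4a2, Col1a2 and Col3a1 (log2 signal minus the array's 75th percentile) at each time label, with 1 line per diet and 1 array per point. Early Col4a1 values in LFC and HFC lie between 3.96 and 5.80 and later ones between 2.37 and 4.35, whereas Col1a2 and Col3a1 move up and down between neighbouring labels.

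Day 14 and Week 0 name the same day of the study, which gives a measure of the spread between arrays. Between these labels the median absolute difference over the 37 chains was 0.893 in LFC, with 16 chains differing by over 1. In HFC it was 1.85, with 30 chains differing by over 1, and Col1a1 stood 3.28 higher at Week 0. Which Day 14 array is LFC is in doubt, and with the pair exchanged Col1a1 stood 3.34 higher at Week 0 in LFC and 0.36 higher in HFC, with median absolute differences of 1.69 and 1.28. HFC and LFC differed by a median of 0.421 within Week 0 and of 1.07 within Day 14. Col4a1 was higher at Week 0 than at Day 14 by 1.02 in LFC and by 1.44 in HFC (0.80 and 1.67 with the pair exchanged). These values set 2 labels of 1 day side by side, while the diet estimates above rest on means over the labels.

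Chains that assemble together were compared across arrays in 12 pairs, with permutation tests of 100000 resamples and Benjamini-Hochberg adjustment over the 12. In 11 of the 12 pairs the correlation passed, and in 7 after quantile scaling, 9 on residuals of the diet and time fit and 8 without the titled arrays. Pairs of other genes were not compared, so passing is not read as particular to chains that assemble together. Col4a1 and Col4a2 had Pearson r = 0.95 and Spearman rho = 0.93 over 39 arrays, each with a permutation p of 1e-05, the smallest these resamples can give (adjusted p = 2.4e-05). Without the 2 arrays farthest from the median r was 0.94, on residuals of the diet and time fit 0.87, and on the 30 arrays without BA or BAT in the title 0.96. Col1a1 and Col1a2 had r = 0.86 and rho = 0.90 over 38 arrays (0.90 without the 2 farthest, 0.81 on residuals, 0.92 on arrays without the token), and Col1a1 and Col3a1 r = 0.90 and rho = 0.92. Col1a2 and Col3a1, whose upstream stretches are printed above and share none of the 3 motifs, had r = 0.94 and rho = 0.94 (n = 39, a description of arrays that share scaling and source).

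The remaining pairs were looser. Col5a1 and Col5a2 had r = 0.85 and rho = 0.84, Col6a1 and Col6a2 0.79 and 0.77, and Col6a2 and Col6a3 0.62 and 0.56. Col8a1 and Col8a2, the chains of network-forming collagen VIII, had 0.58 and 0.49. The minor collagen IV pairs had r = 0.50 and rho = 0.51 for Col4a3 and Col4a4 and 0.37 and 0.39 for Col4a5 and Col4a6, and the collagen IX pairs r of 0.49 for Col9a2 and Col9a3 and 0.45 for Col9a1 and Col9a2. Several of these partners are dim, with Col4a3 well above background on 12 arrays, Col9a3 on 13 and Col9a1 on 8. Col11a1 and Col11a2 had r = 0.23 and rho = 0.22 (permutation p = 0.165 for r) and did not pass. Over 28 pairs among chains of collagens I, III, V and VI the median r was 0.79. Between these chains and Col4a1 or Col4a2 it was 0.45 over 16 pairs. These pairs do not cover every tested chain of collagens I, III, V and VI. Over all 55 fibrillar pairs the median was 0.28, and over 15 basement membrane pairs 0.07.

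**Figure D4:**
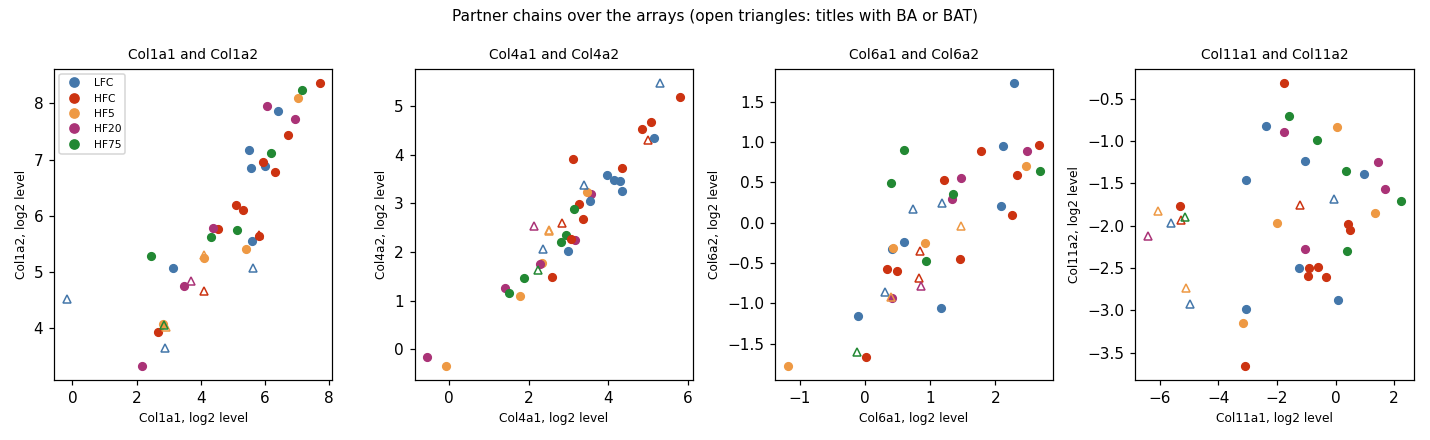
Levels of 4 partner pairs (log2 signal minus the array's 75th percentile, 1 point per array, coloured by diet): Col1a1 with Col1a2, Col4a1 with Col4a2, Col6a1 with Col6a2 and Col11a1 with Col11a2. The collagen IV pair lies close to a line (r = 0.95), and the collagen XI pair scatters (r = 0.23).

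The arrays with BA or BAT in the title differed from the others in a fit that held diet and time label. Each diet had 1 array per time label, so titled and other arrays of a label always differ in diet too. At Day 1, Day 6 and Week 9 they were also scanned on different dates. At Week 18 the titled LFC array shared its scan date with HFC and HF5, but not with HF20 and HF75. With the token as a term beside diet and time label, 20 of 37 chains passed limma's adjusted threshold, where 54.4% of genes did (unadjusted 22 chains and 60.6% of genes). Of these 20, 17 were lower and 3 higher on the titled arrays, against 34% and 20.4% of genes. The share of chains called was thus near that of all genes. The median estimate was -0.93 for the chains and -0.37 over all genes, and 32 of 37 chains had estimates below 0. After quantile scaling the medians were -0.51 and 0.08, with 2 chains called higher and 9 lower, and after normexp -0.96 and -1.17, with 5 and 25. Called chains were 6 of 11 fibrillar, 5 of 6 basement membrane, 6 of 8 fibril-associated and 0 of 3 collagen VI chains.

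Col27a1, a fibrillar chain of cartilage, rose most in the titled arrays, by 2.39 (SE 0.42, adjusted p = 0.000192), with a mean of 0.16 ± 1.37 (SD, n = 9) against -1.84 ± 0.98 (SD, n = 29). The groups overlapped, from -2.59 to 1.86 and from -4.13 to 0.49. Col12a1, a fibril-associated chain, was higher by 1.37 (SE 0.44, adjusted p = 0.0124), but was estimated at -0.96 after normexp and lost its call with the mean over its probes and without Week 12, Week 15, Week 18 or the LFC Week 18 array. Col4a2 was higher by 0.81 (SE 0.32, adjusted p = 0.0363) and its partner Col4a1 by 0.41, which did not pass (adjusted p = 0.359). Col4a2 lost its call under 17 of 63 alternatives, among them quantile scaling (0.56), array weights (0.19) and several single arrays left out, and its estimate ranged from 0.19 to 1.78.

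The largest falls by estimate were those of Col24a1 (-3.31, SE 0.91, adjusted p = 0.00437), Col19a1 (-3.30, SE 0.78, adjusted p = 0.00151) and Col11a1 (-3.11, SE 0.74, adjusted p = 0.00155). Col4a5 (-3.09, SE 0.69, adjusted p = 0.00106) and Col8a2 (-2.79, SE 0.67, adjusted p = 0.00188) followed. Col11a1 ranged from -6.40 to -0.07 (median -5.15) on the 9 titled arrays and from -5.32 to 2.23 (mean -0.84 ± 1.73, SD) on the others. The lowest of the others was HFC Week 6, which carries no token and had low Col24a1 (-6.27) and Col4a5 (-4.92) as well. That array is also the HFC reference of the doses at Week 6. The Col11a1 difference by title was -3.78 at Week 9, -5.12 at Week 12, -3.16 at Week 15 and -3.70 at Week 18, but 0.25 at Day 6 and -0.17 at Day 1. Col24a1 likewise turned at the early labels, where it was higher on the titled array by 3.66 at Day 1 and 2.48 at Day 6, and it lost its call without Week 12 (-2.72). Col11a1, Col14a1, Col16a1, Col27a1, Col4a4 and Col4a5 kept call and direction under all 63 alternatives, which include each array and each time label left out in turn. Col8a2 was well above background on 2 of 9 titled arrays, Col19a1 on 5 and Col11a1 on 6. The lowest signal that counts as well above background had a median of -6.06 on the titled arrays and -3.01 on the others, so dim chains could read lower on the titled arrays. Of the 14 chains well above background on all 39 arrays, 5 were called, Col1a2, Col3a1, Col4a4 and Col16a1 lower and Col4a2 higher, with a median estimate of -0.61. Of the 23 chains dimmer on some array, 15 were called, with a median of -1.01. The shares of all genes called in these 2 brightness groups are not given, so the counts are not read as particular to the chains. The part of brightness in them was not tested.

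Col1a1, Col1a2 and Col3a1 were lower on the titled arrays at each label that allows the comparison, but their calls depended on the processing. Col1a2 ranged from 3.65 to 5.66 (4.65 ± 0.65, SD, n = 9) on titled arrays and from 3.33 to 8.36 (6.26 ± 1.33, SD, n = 30) on the others, an adjusted difference of -1.13 (adjusted p = 0.0292). It was lower at 6 of 6 labels, by 1.19 at Day 1, 1.70 at Day 6, 1.11 at Week 9, 1.07 at Week 12, 1.24 at Week 15 and 0.84 at Week 18. Such differences within a label are also differences between diets, and at Day 1, Day 6, Week 9 and in part Week 18 between scan dates. Col3a1 was lower at 6 of 6 labels as well, with an estimate of -0.93 (adjusted p = 0.0407), and Col1a1 at 5 of 5, with -1.34 (adjusted p = 0.0478). After normexp none of the 3 was called, and Col1a2 (0.47) and Col3a1 (0.66) changed sign while Col1a1 was at -0.22 and the median of all genes at -1.17. After quantile scaling all 3 were called, at -1.50, -1.36 and -1.72 for Col1a2, Col3a1 and Col1a1. The call was lost under 10 of 63 alternatives for Col1a2, 20 of 63 for Col3a1 and 31 of 62 for Col1a1, mostly with a single array or time label left out. Among these, for both Col3a1 and Col1a1, were leaving out LFC Day 10 with HFC Week 12, and leaving out LFC Week 18. Others were leaving out HF20 Week 12 for Col3a1, and keeping outlier spots or exchanging the Day 14 arrays for Col1a1. Of the collagen V chains, Col5a1 and Col5a2 were lower at 5 of 6 labels and Col5a3 at 1 of 6, and none of them was called in limma's fit. Col14a1 and Col16a1, which bind fibrils at their surface, were at -2.13 and -2.02. At Week 12 and Week 15 all arrays share 1 scan date, and there 29 and 30 of 37 chains were lower on the titled arrays. At Day 1 it was 16 of 35. For single labels the share of all genes that were lower is not given, and the title estimate over all genes had a median of -0.37.

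**Figure D5:**
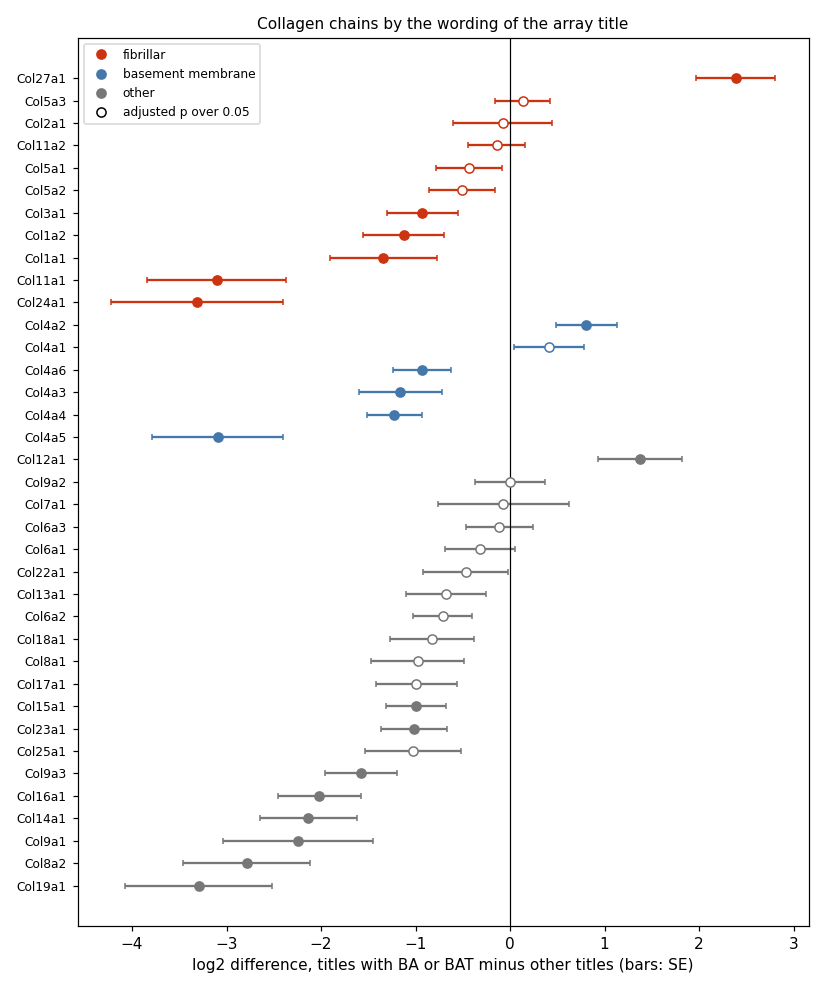
Estimated difference (log2, ± SE) between the 9 arrays titled BA or BAT and the 30 others for each of 37 collagen chains, in limma's fit with diet and time label, coloured by class, with filled points for an adjusted p of 0.05 or less. Col27a1 lies at 2.39, and 17 filled points lie below 0, down to -3.31 for Col24a1.

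The same titles were read in the other gene lists, beside 34% of all genes called lower and 20.4% higher. Of the markers, 6 of 9 fibroblast, 6 of 9 macrophage, 6 of 6 neutrophil, 4 of 4 erythroid, 4 of 4 B cell, 4 of 5 T cell and 3 of 4 mesothelial genes were called lower, and 6 of 8 general adipocyte and 2 of 7 brown adipocyte genes higher. The summed fibroblast level ranged from 4.09 to 11.6 (median 7.07) on titled arrays and from 2.46 to 51.3 (median 17.8) on the others. The 75th percentile signal ranged from 123.6 to 1289 (median 852) on titled arrays and from 18.1 to 3974 (median 81.1) on the others, and 68.4% against 55.7% of probes (medians) were well above background. The parts of cell mixture and of array brightness in the collagen values were not tested. Without the 9 titled arrays, the counts of chains called for HFC against LFC and for the 3 doses were again 0.

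The genes that make, bind and break down collagen were read in the same way, again beside 34% of all genes lower and 20.4% higher. Of 13 measured genes of maturation and crosslinking 5 were lower, including the procollagen proteinases Tll1 (-2.29) and Adamts3 (-2.15) and the crosslinking oxidase Loxl4 (-2.27). Of 11 turnover genes 6 were lower, led by the collagenases Mmp8 (-5.41) and Mmp13 (-3.62) and the gelatinase Mmp9 (-2.87). Of 9 receptors 6 were lower, with the integrin chain Itga1 at -4.62, the platelet receptor Gp6 at -2.59 and Itga2 at -2.51.

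Of 16 modification and folding genes 5 passed, a smaller share than the 54.4% of all genes. Plod1, a lysyl hydroxylase, was higher by 0.93 and Crtap, a part of the prolyl 3-hydroxylation complex, by 0.69, while the lysyl hydroxylase Plod2 (-1.38), Leprel1 (-1.36) and the chaperone Fkbp10 (-1.05) were lower. Of 8 fibril partners 3 were lower, Fmod (-1.94), Fn1 (-1.64) and Dcn (-0.93). Of 9 basement membrane partners 2 were higher, Lama4 (0.71) and Lamb1-1 (0.64), a share near the 20.4% of all genes called higher. Of 9 regulators of collagen genes, Tgfbr2 (0.95) and Smad3 (0.87) were higher and Ctgf (-2.79), Tgfb3 (-1.99) and Tgfb2 (-1.68) lower.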

How the data were processed

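RNA of 39 samples was hybridised to 1-colour Agilent arrays (Cy3). The deposited scanner files hold intensity values per spot from Feature Extraction (version 9.1 per the labels), which the authors' software had background-corrected. A deposited table holds log2 ratios that the authors made against the baseline array of each time label, used as an alternative only, and its pairing of labels to arrays differs at Day 14. Here the log2 of the processed signal minus the 75th percentile of each array was taken, outlier-flagged spots were dropped, spots of a probe were averaged, and probes well above background on at least 6 arrays were kept (34043 of 40628 probes). Each gene was read from its brightest probe. limma 3.58.1 (R 4.3.3) was fitted to all probes with diet and time label as terms, with Benjamini-Hochberg adjustment over all probes at 0.05, and was tested on simulated data. Alternatives were quantile scaling, normexp (offset 50), other filters and probe rules, array weights, and slide and scan date blocks. Further ones were single arrays and time labels left out, a t-test pooled over time labels and the deposited table. The study's own t-test of replicates within a time point could not be run with 1 array per diet and time label. The alternatives that exchanged the Day 14 arrays, or left out HFC Week 6, the LFC Day 10 and HFC Week 12 arrays with low Ucp1, or the 3 arrays with many spots left out, were chosen after seeing the data. Correlations and summaries used Python 3.11.15 with scipy 1.17.1. Arrays give no read depth, and their number limits the precision. Nothing says which arrays came from separate animals, so p-values measure the spread between arrays. The chains, gene lists and the split by title were chosen with earlier results of these data known. Full statistics are given for chains past the threshold in a comparison, up to 5 in each direction, or for the 3 with the smallest p where fewer than 3 passed, and per-array ranges also for the main chains of collagens I, III, IV and VI. Of the other lists, genes past the threshold, up to 3 in each direction, and cell type markers beside a result were named. Other genes named from these lists, and Col5a3, Col11a1 and Col11a2, were chosen after their values were seen. Diet and dose come from source names, and for LFC Day 1 from a characteristic. Time labels come from titles, except that the titles of LFC Week 12 and HF20 Week 12 give no week. The HF20 Week 12 array carries a characteristic that reads high fat diet, and was also left out as an alternative.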

Additional observations from a re-analysis of the deposited data

Results flagged for a closer look

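Within groups of 4 to 10 arrays, the gap from the lowest or the highest array to its neighbour was large for the range of the group (Dixon's test) in 5 of 148 groups of chain and diet, where chance gives about 1 in 20. Col1a2 in HF5 was highest at Week 6 (8.09, the next array at 5.42). Col14a1 in LFC was lowest at Week 18 (-5.21, the next at -1.11), on an array titled BA or BAT. Col22a1 in LFC was lowest at Week 15 (-6.82, the next at -5.01). Col23a1 in LFC was highest at Day 10 (0.189, the next at -2.35), the LFC array with the lowest Ucp1. Col9a2 in LFC was highest at Day 6 (-0.281, the next at -2.18).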

How the results depend on the processing

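No chain was called for the diets, the dose trend or the trend over days under any alternative run, including the fit with no replicate block (time label left out), which gave 0 for HFC against LFC, the 3 doses and the dose trend. A slide block for the trend over days was not run. The 20 chains called by title became 11 after quantile scaling, all of them among the 20, with 60.9% of all called genes higher against 37.6%, and 10 without Week 12. Leaving out single arrays gave 15 (without HFC Week 9) to 22, and single time labels 10 to 22, with 13 without Week 9 or Week 15. Genes called by title were 54.4%, 30.5% after quantile scaling and 83.7% after normexp, where 30.7% of calls were higher. Across time labels the count of 0 became 34 with array weights, which did not converge, 11 with scan date as a block, 5 without the 9 titled arrays and 8 without the 3 arrays with many spots left out. It was 0 to 2 leaving out single arrays (2 without HF20 Week 15) and 0 to 4 leaving out single labels (4 without Week 9). For these counts across time labels the shares of all genes called are not given, so the counts are not read as particular to the chains. Reversed values were Col17a1 in HF75 (0.30) and Col12a1 by title (-0.96) after normexp, and Col9a1 with Col9a2 after quantile scaling (-0.072). Correlations that no longer passed were Col4a3 with Col4a4 (0.27 quantile, 0.25 residuals, 0.35 without the titled arrays), Col4a5 with Col4a6 (0.30 quantile, 0.19 without the titled arrays), Col8a1 with Col8a2 (0.37 without the titled arrays), Col9a1 with Col9a2 (0.30 residuals) and Col9a2 with Col9a3 (0.14 quantile). By title, Col1a2 (0.47) and Col3a1 (0.66) also changed sign after normexp. Of 642 values of single chains, 616 kept direction and side of the threshold. The causes were not tested. Dim chains are limited by signal over background.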
